A study of Mus musculus with 12 samples.

Results

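Of 95132 merged open chromatin regions on the mouse autosomes, 5740 (6.03%) were constitutive regions inside genes. Each was overlapped by a peak in all 12 ATAC-seq libraries, overlapped the span of a protein-coding gene and lay more than 1 kb from the start and end of every protein-coding gene. They were chosen by merging the 12 peak lists on chromosomes 1 to 19 with an overlap of at least 1 bp. They made up 25.5% of the 22472 regions listed in all 12 libraries, beside 9450 gene-end regions within 1 kb of a gene end and 7282 intergenic regions. Presence in every library, position in a gene and distance from gene ends were therefore set by the choice and are given as description.

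ATAC-seq measures open chromatin through Tn5 transposase, which inserts sequencing adapters into accessible DNA. The cells were mouse embryonic stem cells of the BL6xCAST background, a cross of mouse strains, grown on gelatin in medium with LIF and the inhibitors CHIR99021 and PD0325901. The study asked whether synthetic HPRT1 sequences are open in these cells. The synHPRT1 group was 6 libraries, 3 replicates from each of 2 clones, with synHPRT1, which holds sequence of HPRT1, a purine salvage enzyme's gene, integrated on chromosome X. The synHPRT1R group was 6 libraries of the same layout with synHPRT1R, the reversed sequence, integrated on chromosome X. Every library thus carried an integration, and a genotype was represented by 2 clones. Nothing in the labels ties the replicates of a clone to cultures of their own, and the p-values below therefore cover library-to-library spread that may be purely technical. The lists held a lowest 38403, median 48711 and highest 63704 peaks in synHPRT1 libraries, and 41737, 45818 and 58099 in synHPRT1R libraries. A region missing from a list was not detected in that library and is not shown to be closed.

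Open chromatin inside genes has several known sources. Many genes have alternative promoters within their span, which start shorter transcripts. Introns also carry enhancers, stretches bound by transcription factors that raise transcription from a promoter at a distance, and in embryonic stem cells these are often bound by factors such as Oct4, Sox2, Nanog and Esrrb. Promoters rich in CpG dinucleotides are commonly open in many cell types, whereas enhancers are mostly poor in CpG. No transcript or factor was measured here, so no region below is assigned to either class from its position alone.

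Annotated starts inside genes were the first feature examined, because the choice of regions did not use them. Start windows from 250 bases before to 50 bases after a RefSeq start (GRCm38.p6) were available for all autosomes but 1. Of 5540 regions on the chromosomes covered, 940 (17.0%) overlapped a start window, and 845 (15.3%) overlapped a start of their own host gene. The other 4600 overlapped none, while 77.4% of gene-end regions and 4.61% of intergenic regions overlapped one. The windows printed next were picked after their values were seen. They show internal starts of a pluripotency factor, a cytokine receptor and neuronal genes that held a constitutive region, with the capitals marking each CpG, read 5′ to 3′ along the gene.
Esrrb, chr12:86421394-86421693, plus strand: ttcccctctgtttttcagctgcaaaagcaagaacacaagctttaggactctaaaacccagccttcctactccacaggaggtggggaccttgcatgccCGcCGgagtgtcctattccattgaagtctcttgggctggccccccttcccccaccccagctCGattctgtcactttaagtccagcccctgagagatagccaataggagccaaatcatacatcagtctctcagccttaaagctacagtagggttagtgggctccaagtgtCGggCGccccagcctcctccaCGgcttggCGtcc
Lifr, chr15:7129322-7129621, plus strand: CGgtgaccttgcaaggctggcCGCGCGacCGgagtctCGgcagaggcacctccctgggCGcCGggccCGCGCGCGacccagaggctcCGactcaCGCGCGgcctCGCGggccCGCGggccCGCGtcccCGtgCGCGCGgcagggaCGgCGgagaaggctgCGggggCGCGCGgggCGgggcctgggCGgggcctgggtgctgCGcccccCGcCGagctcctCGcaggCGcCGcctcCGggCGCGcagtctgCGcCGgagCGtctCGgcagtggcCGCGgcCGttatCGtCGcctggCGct
Nrxn3, chr12:89812233-89812532, plus strand: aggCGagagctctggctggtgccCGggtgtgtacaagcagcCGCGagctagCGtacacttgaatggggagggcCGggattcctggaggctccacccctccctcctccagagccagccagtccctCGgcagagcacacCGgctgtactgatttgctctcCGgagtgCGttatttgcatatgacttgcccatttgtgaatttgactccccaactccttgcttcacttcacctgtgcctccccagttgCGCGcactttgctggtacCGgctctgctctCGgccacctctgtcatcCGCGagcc
Cntnap2, chr6:47244146-47244445, plus strand: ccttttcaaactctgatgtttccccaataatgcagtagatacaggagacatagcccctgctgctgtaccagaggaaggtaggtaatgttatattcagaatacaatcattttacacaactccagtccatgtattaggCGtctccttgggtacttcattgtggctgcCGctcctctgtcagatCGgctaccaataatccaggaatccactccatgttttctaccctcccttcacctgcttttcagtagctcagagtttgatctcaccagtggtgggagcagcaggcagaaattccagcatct
Bdnf upstream start, chr2:109694159-109694458, plus strand: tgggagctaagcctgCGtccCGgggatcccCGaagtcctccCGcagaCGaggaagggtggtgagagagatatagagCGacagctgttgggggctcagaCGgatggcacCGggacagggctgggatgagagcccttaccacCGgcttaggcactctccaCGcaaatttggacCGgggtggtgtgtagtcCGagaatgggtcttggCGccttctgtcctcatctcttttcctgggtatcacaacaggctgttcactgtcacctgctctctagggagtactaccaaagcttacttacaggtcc
Bdnf downstream start, chr2:109722671-109722970, plus strand: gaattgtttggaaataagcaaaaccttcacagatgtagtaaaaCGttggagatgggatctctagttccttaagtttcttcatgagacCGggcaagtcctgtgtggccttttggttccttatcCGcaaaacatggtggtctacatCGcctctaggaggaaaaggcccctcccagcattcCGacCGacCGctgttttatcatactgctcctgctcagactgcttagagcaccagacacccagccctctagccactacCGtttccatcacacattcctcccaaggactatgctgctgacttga
For contrast, an internal start of Shank3 that is also rich in CpG overlapped no peak in any library.
Shank3, chr15:89499358-89499657, plus strand: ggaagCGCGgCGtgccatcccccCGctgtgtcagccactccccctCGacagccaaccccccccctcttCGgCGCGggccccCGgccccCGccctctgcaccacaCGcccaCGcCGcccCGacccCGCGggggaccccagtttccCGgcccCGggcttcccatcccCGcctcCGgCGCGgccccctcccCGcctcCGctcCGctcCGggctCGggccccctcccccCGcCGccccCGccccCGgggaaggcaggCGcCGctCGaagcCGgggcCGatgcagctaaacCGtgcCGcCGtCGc

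The printed windows differed in base composition. Lifr, which encodes the receptor for the LIF in the medium, had 53 CpG in 300 bases and a GC content of 81.3%. Cntnap2, a neuronal adhesion gene, had 3 CpG and 46.3% GC, and Esrrb, an orphan nuclear receptor of naive pluripotency, had 7 CpG and 55.3% GC. Both Lifr and Cntnap2 windows lay in regions listed in all 12 libraries, so a CpG-poor start could be listed throughout. The Shank3 window had 40 CpG and 81.0% GC and no peak, although a constitutive region, chr15:89499831-89500821, began just downstream of it.

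Over all internal starts, the windows with a constitutive region were GC-rich and CpG-rich. Of 3465 start windows of protein-coding genes lying inside gene spans, 1173 (33.9%) overlapped a region listed in all 12 libraries. Of the 3465, 1002 (28.9%) held a constitutive region of the class described here, and the rest of the 1173 overlapped gene-end regions. A further 622 overlapped a peak in 1 to 11 libraries and 1670 (48.2%) overlapped none. The median window with a constitutive region had 62.0% GC and 20 CpG, and the median window with no peak had 49.0% GC and 4 CpG. The middle 50% of windows ran from 12 to 29 CpG with a constitutive region and from 2 to 6 CpG with no peak, so these ranges did not overlap. The GC box GGGCGG stood in 64.5% of windows with a constitutive region, 14.3% of windows with no peak and 36.0% of all 31396 start windows. The TATA box TATAAA stood in 4.89%, 16.2% and 13.6% of the same sets. The E-box CACGTG stood in 7.88%, 3.59% and 7.14%. Letters bound by pluripotency factors were rare in these 300-base windows. The octamer ATGCAAAT stood in 1.70%, 1.38% and 1.75%, the Esrrb half-site AAGGTCA in 3.19%, 6.23% and 4.69%, and the STAT site TTCCNGGAA in 0.898%, 1.2% and 1.18%. All motifs were searched on both strands, and matches of different motifs could overlap. A match of letters is a description and not a bound site.

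**Figure D1:**
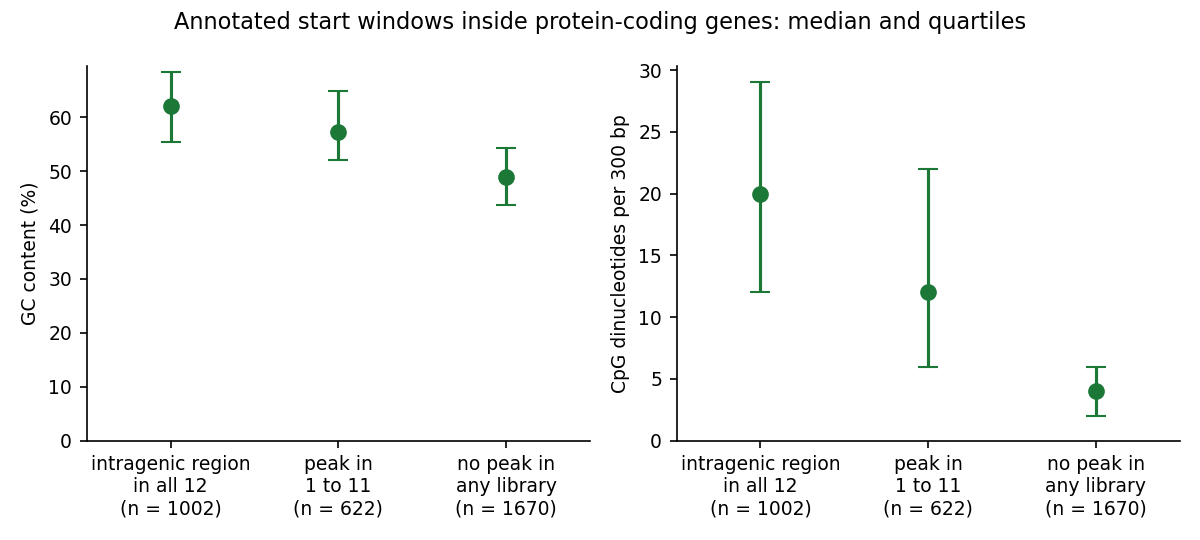
GC content in percent (left) and CpG dinucleotides per 300 bp (right) of RefSeq start windows inside protein-coding genes, as medians (points) with lower and upper quartiles (bars), for 1002 windows with an intragenic region listed in all 12 libraries, 622 with a peak in 1 to 11 and 1670 with none. Median CpG was 20 in the windows with a constitutive region and 4 in those with no peak.

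Within a library, regions were compared by fold percentile. The authors' fold is the enrichment of a peak's summit over local background, and the percentile is the rank of a region's strongest fold among the same 22472 regions in that library, from 0 to 100. The Nrxn3 start region had percentiles of lowest 83.3, median 87.8 and highest 92.4 in synHPRT1 libraries, and 77.7, 87.0 and 92.7 in synHPRT1R libraries. Nrxn3 encodes a presynaptic adhesion protein, and its start region ranked high in every library. The Cntnap2 start region had 52.7, 88.3 and 91.5 in synHPRT1 libraries, and 66.3, 81.7 and 96.3 in synHPRT1R libraries, with overlapping groups and a single low synHPRT1 library. The Lifr start region sat in the middle, at 20.7, 37.4 and 67.6 in synHPRT1 libraries and 25.5, 46.4 and 56.0 in synHPRT1R libraries. The Esrrb start region was low in every library despite being listed in all of them, at 1.10, 13.9 and 17.3 in synHPRT1 libraries and 1.83, 7.28 and 16.9 in synHPRT1R libraries. Bdnf encodes a neurotrophin and has many annotated first exons. Of its 6 internal start windows, 2 held constitutive regions, with median percentiles of 72.8 upstream and 32.0 downstream, and the other 4 overlapped no peak.

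**Figure D2:**
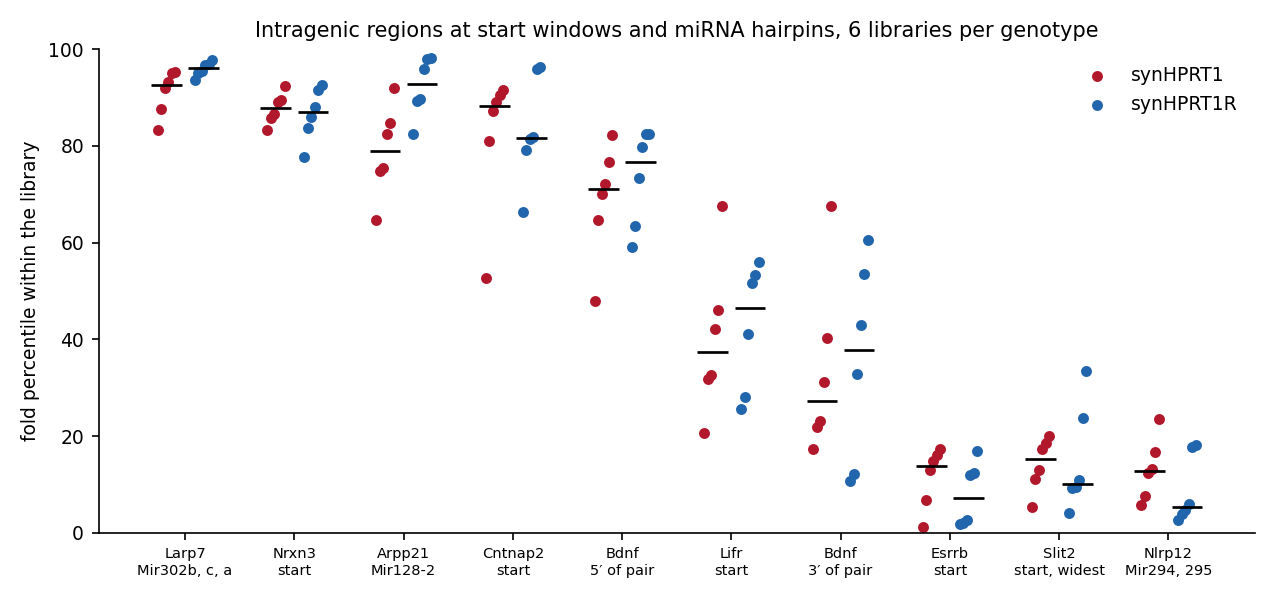
Fold percentile (0 to 100) of 10 intragenic regions in each library, with synHPRT1 libraries (red) left of synHPRT1R libraries (blue) and a black line at each median, for regions at internal starts and at miRNA hairpins, ordered by median. The Larp7 and Nrxn3 regions ranked high in every library, the Esrrb and Nlrp12 regions ranked low in every library, and the genotypes overlapped at each region.

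Internal starts with a constitutive region were found in 817 genes, and those of some regulators of pluripotency and chromatin among the list genes are given here, picked after their values were seen. The internal starts of Dnmt3a and Otx2, also list genes, held none. The median percentile over 12 libraries was 6.71 at Nr5a2, a nuclear receptor that acts on Pou5f1, and 25.96 at Lin28b, an RNA-binding inhibitor of let-7. It was 26.5 at Lef1 and 31.6 at Axin2, a Wnt effector and a Wnt feedback inhibitor. It was 66.5 at the internal starts of Dnmt1, the maintenance DNA methyltransferase, 48.3 at Kdm2b and 69.8 at Kdm4c, both histone demethylases. Regions at a start of their host were spread along the ranking, with a 10th percentile of 14.3, a median of 53.1 and a 90th percentile of 88.3. Regions at no start window had 11.5, 41.0 and 81.2. Start regions were also wider after merging, with a median of 1205 bp against 990 bp.

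Regions at starts lay towards the 5′ end of their hosts. Among 835 single-host regions at a start of the host, 45.8% lay in the first 20% of the span from the 5′ end and 4.07% in the last 20%. Among 3619 regions at no host start, the shares in successive stretches of 20% of the span were 19.1%, 21.3%, 19.5%, 21.3% and 18.8%. Away from annotated starts the regions were thus spread nearly evenly from 5′ to 3′.

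MicroRNA hairpins stood in 10 of the regions, which together overlapped 13 of 919 autosomal hairpins. The mature sequences of the clusters best known from embryonic stem cells are printed because they share a seed, bases 2 to 8, given in capitals. These miRNAs were picked after their values were seen, and the sequences are those of RefSeq (GRCm38.p6).
mmu-miR-302b-3p: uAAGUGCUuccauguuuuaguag
mmu-miR-302c-3p: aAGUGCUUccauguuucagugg
mmu-miR-294-3p: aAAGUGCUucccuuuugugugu
mmu-miR-295-3p: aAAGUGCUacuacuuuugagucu
The seed AAGUGCU was shared by miR-302b-3p, miR-294-3p and miR-295-3p, and the seed of miR-302c-3p was AGUGCUU, the same letters shifted by a base. miRNAs of this seed are known to promote the cell cycle of embryonic stem cells. The region over Mir302b, Mir302c and the edge of Mir302a lay inside Larp7, whose product binds the 7SK RNA, at chr3:127544402-127545515. Its fold percentile was lowest 83.2, median 92.5 and highest 95.3 in synHPRT1 libraries, and 93.5, 96.2 and 97.7 in synHPRT1R libraries. The region over Mir294 and Mir295 lay inside the annotated span of Nlrp12 at chr7:3220648-3222561. It had 5.80, 12.8 and 23.5 in synHPRT1 libraries, and 2.69, 5.34 and 18.1 in synHPRT1R libraries. The clusters sharing the seed thus lay near opposite ends of the ranking, although both regions were listed in every library. The Nlrp12 region was wide, at 1914 bp, against 1114 bp at Larp7. A further hairpin region, over Mir128-2 in Arpp21, had percentiles of 64.7, 78.9 and 92.0 in synHPRT1 libraries and 82.4, 92.8 and 98.1 in synHPRT1R libraries. The other 7 regions, over Mir6352, Mir7655, Mir1895, Mir6917, Mir6387, Mir153 and Mir1904, had medians from 10.3 to 78.0. Hairpins are short, and 518 of them lay inside genes away from gene ends, of which 2.51% were overlapped by a constitutive region.

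Constitutive regions were found in 3669 of 20661 autosomal protein-coding genes (17.8%), and 2538 of these genes held exactly 1. At the other end, 224 genes held at least 4, 35 held at least 8, and the genes with at least 4 contained 21.5% of all the regions. These counts moved with gene length. The median span was 70.4 kb for genes with a region and 13.2 kb for genes without. The share of genes with a region was 1.83% below 10 kb of span, 12.46% from 10 to 30 kb, 28.0% from 30 to 100 kb and 54.6% from 100 to 300 kb. It was 79.7% from 300 to 1000 kb and 100% in the 55 genes over 1000 kb. Per Mb of span the order differed, with 4.48 regions in the shortest class, 7.29 from 10 to 30 kb and 3.96 in the longest. Genes over 1000 kb were therefore hit most often but were the sparsest class per length. Density fell with length from 10 kb upwards, to 4.64 from 300 to 1000 kb, and the shortest class stood below that. The choice leaves out 1 kb at each gene end, a larger share of a short span, so densities of short and long genes are not directly comparable.

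Genes with many regions differed in length and role. Pde4d, a phosphodiesterase that degrades cAMP, held 25 regions over 1301.8 kb (chr13:108654177-109955969). Ptprn2, a phosphatase-like protein of secretory vesicles, Dlgap1, a postsynaptic scaffold protein, and Auts2, a neurodevelopmental regulator, held 14 each. The teneurins Tenm3 and Tenm4 and the adhesion receptor Adgrl3, all cell-surface proteins of synapse formation, held 11 each. Rabgap1l, a regulator of Rab GTPases, held 10, and Clybl, a mitochondrial lyase, Etl4, and Prkg1, the cGMP-dependent kinase, held 9 each. The zinc-finger genes Zfp993 and Zfp978 held 14 and 11. These genes lie in a cluster of similar copies on chromosome 4, and the sources used here do not say how reads matching several copies were treated, so their counts are uncertain.

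**Figure D3:**
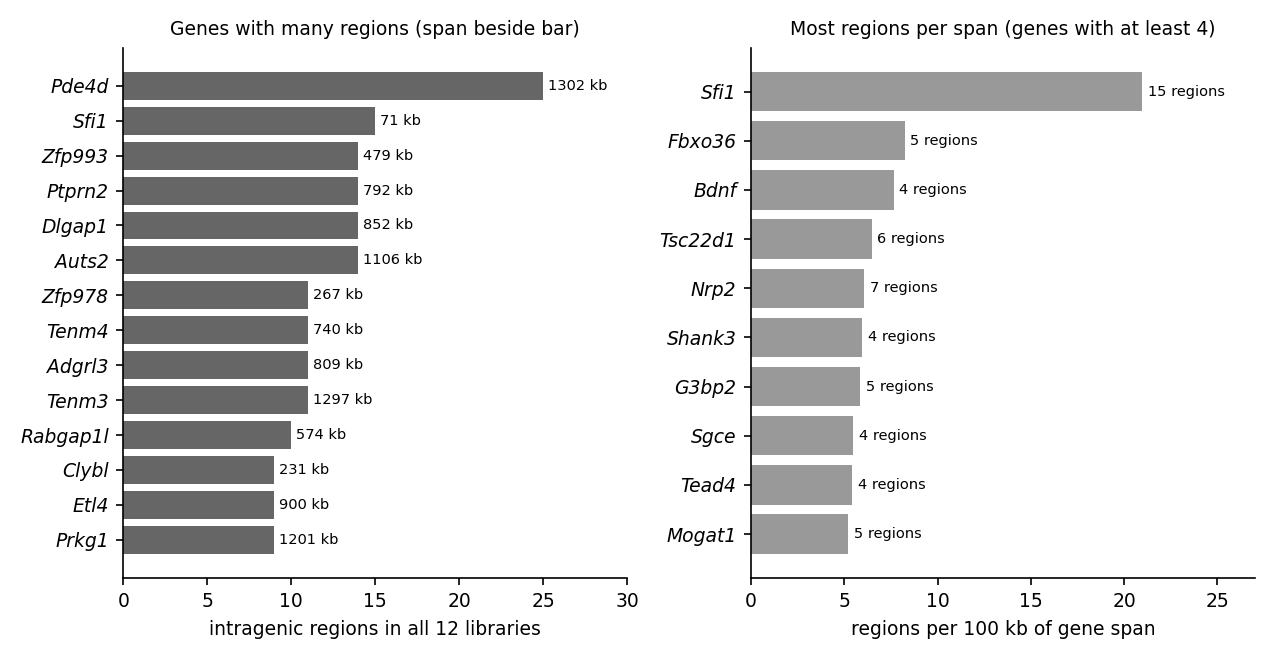
Left, 14 protein-coding genes with many intragenic regions listed in all 12 libraries, with the gene span in kb beside each bar. Right, regions per 100 kb of span for the 10 densest genes with at least 4 regions, with the number of regions beside each bar. Pde4d led by count with 25 regions, and Sfi1 led by density with 21.0 per 100 kb.

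The regions of Pde4d differed widely in strength. Their median fold percentiles ran from 1.78 to 93.6, with 3 of 25 above 75, 9 below 25 and 3 below 5. The median over the 25 regions was lowest 28.8, median 36.4 and highest 48.5 in synHPRT1 libraries, and 22.6, 37.9 and 47.1 in synHPRT1R libraries. The groups overlapped almost completely. The first region began 419 kb from the 5′ end, and the map of the gene shows none before it. The strongest region of Pde4d by fold, chr13:109822042-109822781, was 740 bp wide. By −log10 p it was at 88.9, and the highest was a region about 607 kb from the 5′ end, at 95.4 against 53.4 by fold. The widest region of Pde4d, chr13:109631750-109633862, was 2113 bp wide with a median percentile of 3.70. The last of the series, chr13:109902097-109903868, held Mir1904 and had a median percentile of 48.3.

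**Figure D4:**
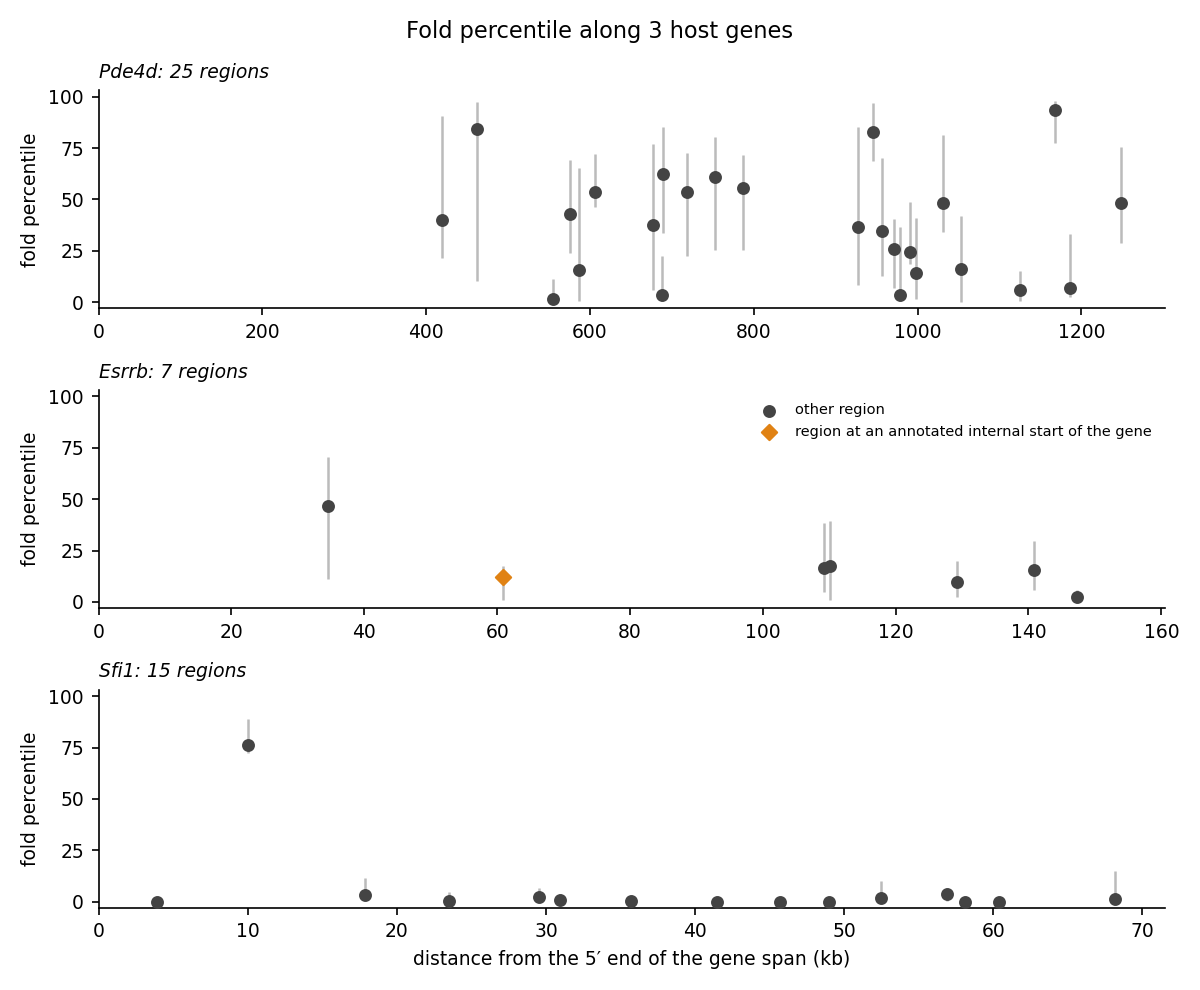
Median fold percentile over 12 libraries (points) with the lowest and highest library (grey lines) of each constitutive intragenic region, against distance from the 5′ end of the gene span in kb, for Pde4d, Esrrb and Sfi1. Regions of Pde4d covered nearly the whole ranking, 6 of 7 Esrrb regions lay below 25, and 14 of 15 Sfi1 regions lay below 5.

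In the other long genes the median over the regions took different levels, beside 22.6 to 48.5 across libraries for Pde4d. The median over the regions of a gene lay between 43.1 and 71.4 across libraries for Ptprn2, 23.7 and 61.1 for Dlgap1, and 30.1 and 46.1 for Auts2. It lay between 26.3 and 54.3 for Tenm4, 28.0 and 57.8 for Tenm3, and 33.7 and 78.0 for Adgrl3. For Rabgap1l it lay between 44.1 and 75.6. Etl4 was lower, with 18.2 to 38.8 in synHPRT1 libraries and 15.2 to 29.4 in synHPRT1R libraries. For each of these genes the genotypes overlapped.

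Sfi1 was the densest of the genes with at least 4 regions, and most of its regions ranked low. Sfi1, whose product binds centrin at centrioles, held 15 regions in 71.5 kb (chr11:3131850-3203347), or 21.0 per 100 kb, against 8.24 in Fbxo36, the next of these genes. Of its 15 regions, 14 had a median fold percentile below 5 and the remaining region, chr11:3192799-3193881, had 76.4. The median over the gene was lowest 0.278, median 0.378 and highest 0.874 in synHPRT1 libraries, and 0.234, 0.369 and 1.19 in synHPRT1R libraries. The 5 lowest fold percentiles of all 5740 regions were in Sfi1, the lowest being 0.0334 at chr11:3198864-3199940. When the same regions were ranked by the authors' −log10 p-value, the median over Sfi1 was 57.6 and 5 of 15 were above 75. By their definitions, the fold relates the summit to its local background, while −log10 p also grows with the number of reads. The sources used here do not say whether a list of regions prone to artefacts was removed.

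The other dense genes had medians from 10.3 to 50.0, against a median of 42.8 over all 5740 regions. Fbxo36, an F-box protein gene, had 5 regions in 60.6 kb, all below 25, with a median of 10.3. Bdnf had 4 in 52.3 kb with a median of 27.8, and Tsc22d1, a leucine-zipper gene induced by TGF-beta, had 6 in 92.8 kb with 29.7. Nrp2, a receptor for semaphorins, had 7 with 49.5, and Shank3, a postsynaptic scaffold protein, had 4 with 50.0. G3bp2, a stress-granule protein, had 5 with 46.9, and by −log10 p their median was 75.5. Sgce, an imprinted sarcoglycan gene, had 4 with 43.0, Tead4, a transcription factor of the Hippo pathway, had 4 with 18.6, and Mogat1, a monoacylglycerol acyltransferase, had 5 with 34.3.

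Clusters of regions were uncommon. When regions were joined across gaps no longer than the distance commonly used to stitch neighbouring enhancers, 4654 (81.1%) stood alone and 73 runs held at least 3. Only the constitutive intragenic regions were joined, so a region standing alone could lie near a gene-end, intergenic or less often listed region. The longest run by count was the 15 regions of Sfi1 over 65.4 kb. Runs of 5 stood in Clybl over 26.2 kb, G3bp2 over 28.0 kb, Fbxo36 over 30.7 kb and Dlgap1 over 36.0 kb. The runs of Clybl and Fbxo36 had median percentiles of 13.1 and 10.3, while those of G3bp2 and Dlgap1 had 46.9 and 36.2.

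Pluripotency genes were short and mostly held no region inside them. Of 20 naive and general pluripotency genes, 4 held at least 1 region (20.0%, against 17.8% of all genes), with a median span of 6.85 kb in the list against 17.5 kb overall. Esrrb held 7 of the list's 10 regions, in 160.5 kb, and Tfcp2l1, Tbx3 and Nr5a2, all transcription factors of the naive state, held 1 each. The 7 Esrrb regions had a median of lowest 6.71, median 14.4 and highest 16.0 in synHPRT1 libraries, and 5.92, 12.6 and 17.1 in synHPRT1R libraries. Only the first region of Esrrb, chr12:86394945-86396299, exceeded 25, at 46.5, and the lowest, chr12:86507830-86508886, was at 2.60. Its regions were therefore numerous for the gene's length but low in fold relative to other constitutive regions. By −log10 p they ranked higher, with a median of 35.4 and no region above 75. Tfcp2l1 had a single region, chr1:118647707-118648655, at 68.6. Among 11 formative and primed genes, 4 held regions, namely Fgf5, Dnmt3a, Cdh2 and Lin28b.

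Lists of signalling and chromatin genes gave small counts, with shares on both sides of the 17.8% of all genes. Their median spans were longer than the 17.5 kb of all genes. In the LIF and STAT3 list 1 of 7 genes (14.3%, median span 52.8 kb) held regions, which was Lifr with 2. The Wnt list had 5 of 12 genes with a region (41.7%, 102 kb). The FGF and ERK list had 5 of 15 (33.3%, 58.1 kb), and the BMP and Nodal list 2 of 14 (14.3%, 39.5 kb). Among chromatin regulators 8 of 18 genes (44.4%) held 14 regions, with a median gene span of 65.4 kb. Tet2, an enzyme that oxidises 5-methylcytosine, and Kdm4c held 3 each. Of 15 housekeeping genes 2 held a region, Actb with 1 and Ywhaz with 2, in a list with a median span of 4.62 kb.

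Long neuronal genes carried the most regions among the lists. In the neural list, 7 of 11 genes (63.6%, against 17.8% of all genes) held 11 regions, and the list's median span was 9.36 kb. All 12 genes listed as long neuronal adhesion and scaffold genes held at least 1, with 68 in all, and their median span was 1808 kb. Per Mb they had 3.20 regions, the lowest of the 14 lists, against 5.85 over all protein-coding genes. Macrod2 and Lsamp held 9 each, Ptprd and Magi2 8 each, Nrxn3 7, Lrp1b and Dlg2 6 each, Cntnap2 5 and Pcdh15 4. Several of these ranked high by fold. The median over the regions was 68.5 for Lsamp and 67.8 for Lrp1b by fold, and 57.9 and 57.5 by −log10 p. The list's Csmd1, Opcml and Ctnna2, with 2 regions each, had medians of 26.1, 34.1 and 50.0 by fold. The Lsamp median was lowest 55.2, median 66.3 and highest 72.1 in synHPRT1 libraries, and 43.4, 67.5 and 76.0 in synHPRT1R libraries. The Lrp1b median was 54.4, 72.1 and 78.2 in synHPRT1 libraries, and 56.7, 73.1 and 86.8 in synHPRT1R libraries. Macrod2 was lower, at 10.9, 34.9 and 49.8 in synHPRT1 libraries and 35.8, 43.6 and 58.9 in synHPRT1R libraries. The genotypes overlapped there. Macrod2 encodes a mono-ADP-ribosylhydrolase, so the name of the list does not describe it.

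Lists for other cell types held fewer regions than the long neuronal list, in shorter genes, and their shares of genes with a region stood on both sides of the 17.8% of all genes. Endoderm genes had 3 of 10 with a region (30.0%), which were Gata4, Dab2 and Cubn with 1 each. Trophoblast genes had 3 of 10 (30.0%), with 4 of their 6 regions in Tead4, whose median over the gene was 11.2, 16.5 and 27.6 in synHPRT1 libraries and 8.16, 18.4 and 24.0 in synHPRT1R libraries. Fibroblast and feeder markers had 1 of 11 (9.09%), Fn1 with 2 regions, and genes taken as silent in these cells had 2 of 10 (20.0%), Ttn with 2 and Pmel with 1. A constitutive region inside a gene does not measure its expression, and these counts do not test the labelled cell type.

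The regions of highest fold were narrow and fixed in position. The strongest of all, in Chl1, a neural adhesion gene, was chr6:103649056-103649286, with a percentile of 99.993 to 99.998 in all 12 libraries and a median fold of 48.7. Its merged width of 231 bp was also the narrowest of the 5740, and its summit fell on the same base in every library. The other 9 of the top 10 lay in Ppp1r9a, Kctd16, Camk1d, Cntnap5b, Gphn, Cmss1 and Filip1l, Il31ra, Ubqln1 and Peak1. They had median folds from 24.95 to 37.6 and merged widths from 308 to 546 bp. None of the 10 overlapped a start window where the start table applies. The spread of the summit over libraries was at most 20.1 bp (SD) in these 10, against a median of 79.8 bp over all 5740 regions, whose median width was 1020 bp and median fold 6.38. The sources used here do not say how reads matching several places in the genome were treated.

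The widest regions ranked mostly low. The widest was a start of Slit2, an axon guidance ligand, at chr5:47982745-47986467, with 3723 bp. Its percentile was lowest 5.39, median 15.2 and highest 20.1 in synHPRT1 libraries, and 4.07, 10.1 and 33.5 in synHPRT1R libraries, and its summit moved by 1225 bp (SD) between libraries. The next were in Cpeb2 with 3190 bp, Pcdh17 with 3104 bp and Unc45b with 3048 bp. Those in Kctd1, Rreb1, Tmem267, Abca16, Tchh and Kcnn2 were 2947 to 2720 bp. The median percentiles of the 10 widest ran from 0.937 in Pcdh17 to 40.5 in Cpeb2, below the median region of the class. The region in Tmem267 was at 7.19 by fold and at 97.1 by −log10 p. Besides Chl1, the narrowest were in Dnah7b with 240 bp, Csf2ra with 271 bp, Adgrv1 with 291 bp and Trim71 with 305 bp, and their percentiles ran from 9.75 to 99.2.

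Regions of the class varied in width and fold. Between the 10th and 90th percentile of regions, the merged width ran from 678 to 1606 bp and the median fold from 4.71 to 9.06. A single peak was listed in every library for 4664 regions (81.3%). The rank of a given region moved between libraries by a median range of 46.9 percentile points over the 12 libraries. Still, 268 regions (4.67%) were above the 75th percentile in every library and 246 (4.29%) below the 25th in every library. Of all regions 3688 (64.3%) lay over 10 kb from every protein-coding gene end and 808 (14.1%) over 100 kb.

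Compared with gene-end regions of the same 12 libraries, intragenic regions were weaker and narrower. Their median fold percentile was 43.5 ± 0.624, against 57.3 ± 0.667 at gene ends (SD over 12 libraries), a difference of -13.8 ± 1.03 that was negative in 12 of 12 libraries (two-sided exact sign-flip permutation test, p = 0.000488, adjusted p = 0.000977 over 4 comparisons). That p is the smallest 12 libraries can give. Their median peak width was 661 ± 71.9 bp, against 846 ± 75.4 bp at gene ends, a difference of -186 ± 7.52 bp in 12 of 12 libraries (same exact permutation test, p = 0.000488, adjusted p = 0.000977). On average 7.08 ± 0.335% of intragenic regions were in the top 10% of folds of a library, against 12.7 ± 0.343% of gene-end regions. Most gene-end regions overlapped a RefSeq start window, and annotated starts moved with the rank difference. Without the regions at start windows and those of the autosome the start table does not cover, an alternative chosen after seeing the data, it was -3.48 ± 1.75 (exact permutation p = 0.000488) and the width difference -149 ± 13.4 bp.

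Differences from intergenic regions were small. The median fold percentile was 43.5 ± 0.624 in genes and 46.2 ± 1.16 between genes, a difference of -2.66 ± 1.26 that was negative in 11 of 12 libraries and 0 in the other (exact sign-flip permutation test, p = 0.000977, adjusted p = 0.0013). When peaks had to cover 50% of a merged region, this difference was -0.742 and no longer passed (exact p = 0.0586). Peak width was 661 ± 71.9 bp in genes and 650 ± 65.6 bp between genes, a difference of 11 ± 7.74 bp (exact p = 0.00146, adjusted p = 0.00146). Without the regions at RefSeq start windows and those of chromosome 18, which the start table does not cover, an alternative chosen after seeing the data, that difference was -9.58 bp (exact p = 0.00195), the opposite direction.

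**Figure D5:**
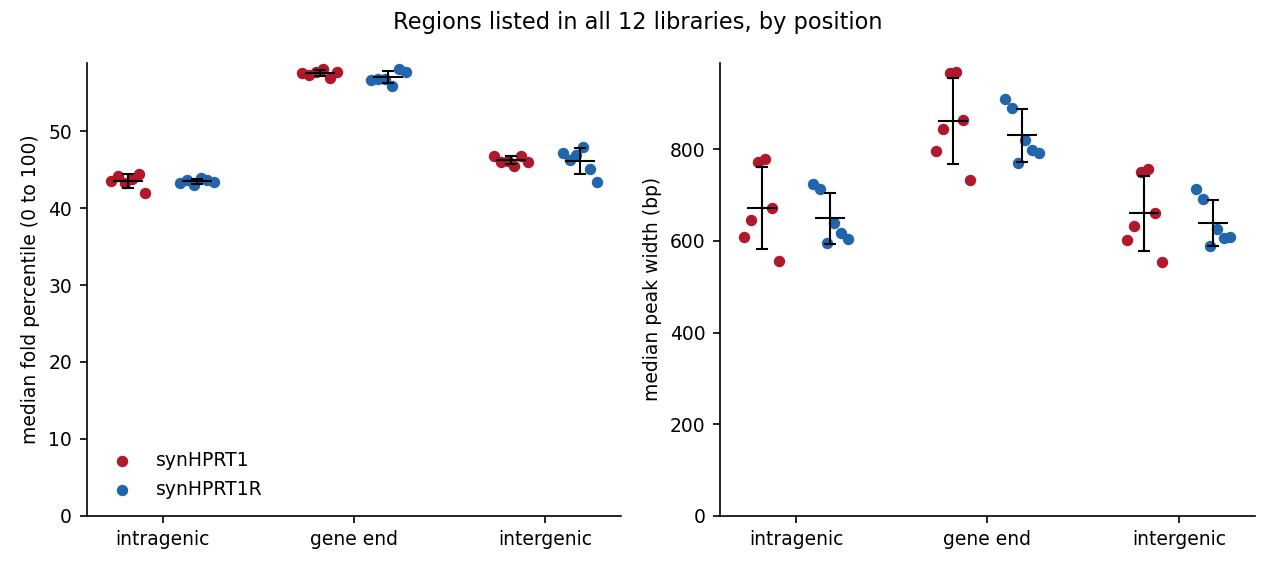
Median fold percentile (left) and median peak width in bp (right) of intragenic, gene-end and intergenic regions listed in all 12 libraries, with a point per library, synHPRT1 (red) left of synHPRT1R (blue), and black bars for mean and SD (n = 6). Intragenic medians lay between 42.0 and 44.4 in every library, below the gene-end medians of 55.9 to 58.1.

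Between genotypes the intragenic regions as a class did not differ detectably. The median fold percentile was 43.5 ± 0.873 in synHPRT1 libraries and 43.5 ± 0.306 in synHPRT1R libraries (SD, n = 6 each), a difference of 0.0204 (two-sided exact permutation test over 924 splits, p = 0.961). The clone means were 43.7 and 43.4 for synHPRT1 and 43.4 and 43.7 for synHPRT1R. The direction of so small a difference turned under several alternatives, including each of the 12 in which a library was left out and the regions chosen anew, when it lay between -0.854 and -0.0409. It passed an exact p of 0.05 without synHPRT1 clone 1 replicate 1 (-0.782), synHPRT1 clone 2 replicate 2 (-0.667), synHPRT1R clone 2 replicate 2 (-0.805) or synHPRT1R clone 2 replicate 3 (-0.854), and the cause was not tested. Median peak width was 672 ± 89.1 bp in synHPRT1 libraries and 649 ± 55.8 bp in synHPRT1R libraries (exact permutation p = 0.589). The share of regions listed as a single peak was 95.5 ± 0.684% in synHPRT1 libraries and 95.4 ± 0.193% in synHPRT1R libraries (exact permutation p = 0.675).

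No single region passed a test between genotypes. Limma was fitted to the fold percentiles of all 22472 constitutive autosomal regions with no filter, and at a Benjamini-Hochberg adjusted p of 0.05 it called 0 of the 5740 intragenic regions, beside a background of 0% of all regions. At an unadjusted p under 0.05 it had 457 intragenic regions (7.96%), 209 higher and 248 lower in synHPRT1, beside 7% of all regions. The 6 synHPRT1 and 6 synHPRT1R values did not overlap in 28 intragenic regions (0.488%), beside 0.378% of all regions. The median size of a difference was 5.93 percentile points and its median standard error 8.26 points, so differences of the typical size could not be told from the spread.

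The regions with the smallest unadjusted p are named as candidates only. In Fkbp5, a co-chaperone of steroid receptors, chr17:28418365-28419439 had percentiles of lowest 12.6, median 31.8 and highest 39.3 in synHPRT1 libraries, and 0.681, 4.48 and 12.3 in synHPRT1R libraries. The groups did not overlap, and the limma adjusted p was 0.341. In Gpatch2, chr1:187232801-187233941 had 4.53, 19.9 and 28.2 in synHPRT1 libraries, and 43.9, 64.7 and 71.2 in synHPRT1R libraries, again without overlap and with an adjusted p of 0.341. The other regions higher in synHPRT1 by this ranking were in Tulp3, Diaph3, Fbxo46 and Atp6v1h, with differences of 19.4 to 36.4 points. Those lower in synHPRT1 were in Rb1, Rhobtb3, Csmd1 and Adamtsl1, with differences of -43.7 to -22.5 points. Their adjusted p ran up to 0.358. The groups overlapped at Atp6v1h, Csmd1 and Adamtsl1 and not at the others.

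Chromosomes held the regions at similar densities. Counts ran from 130 on chromosome 19 to 495 on chromosome 2, and densities from 4.65 per Mb of protein-coding span on chromosome 19 to 6.88 on chromosome 4. The median percentile was lowest on chromosome 11, at 36.3, and highest on chromosome 14, at 50.0. Between genotypes, chromosome 12 had the smallest p of the 19, with 40.4 ± 1.67 in synHPRT1 libraries and 42.3 ± 0.914 in synHPRT1R libraries (exact permutation p = 0.0433, adjusted p = 0.555).

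The thresholds of the choice left many intragenic regions out, and those listed in fewer libraries were narrower and lower in fold. A merged width spans the peaks of every library that lists the region, so by construction it tends to grow with the number of libraries. Regions in all 12 libraries had a median width of 1020 bp and a median fold of 6.40 pooled over the libraries that list them, beside 801 bp and a pooled 4.96 for a further 1680 intragenic regions listed in 11 of 12. Of these 1680, 445 (26.5%) were missing only from synHPRT1 clone 2 replicate 3, the library with the shortest list. Regions in a single library numbered 12123, with a median width of 239 bp. At the distance limit, 67 regions lay 1001 to 1098 bp from a gene end, with a median percentile of 45.7, and 62 regions 902 to 999 bp from one were left out, with 37.6.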

How the data were processed

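Each of the 12 ATAC-seq libraries has its own deposited MACS2 narrowPeak list, so peaks were called per library. Per the submitters' processing notes, the tools included MACS2 2.1.0 and Bowtie2 2.2.9, besides bcl2fastq 2.20, deepTools 3.5.0 and SAMtools 1.9, with GRCm38, also called mm10, as the genome. The sources used here give no settings and no treatment of duplicate or multi-mapping reads, Tn5 shift or blacklist. The authors' deposited lists hold an integer score per peak (not analysed), the fold (a ratio of the summit to its local background), the −log10 p-value and −log10 q-value of the summit and the summit offset. These are the authors' values, and ranks and filters were applied inside each list. Depth is unknown, since the lists hold no read counts.

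Peaks on chromosomes 1 to 19 were merged and classed against RefSeq protein-coding spans (GRCm38.p6). Within each library the strongest fold of a region was ranked among the 22472 regions listed in all 12 libraries, and widths of its peaks were summed. Classes were compared with exact sign-flip permutation tests over libraries and genotypes with exact permutation tests, whose smallest p is 0.00216 for 6 against 6 and 0.333 for 2 clones against 2. Single regions were tested with limma 3.58.1 (R 4.3.3, trend, Benjamini-Hochberg, threshold 0.05), which was tested on simulated data. Other steps used Python 3.11.15. Replicate numbers did not pair libraries.

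Exons were not annotated in the table used, so regions are not called exonic or intronic. Start windows and miRNAs came from RefSeq tables without chromosome 18 starts, and 4205 of 20661 protein-coding genes had no start window. Region sequences were not used here. The genes named are the 15 with most regions, the 10 densest with at least 4, list genes with at least 4, regions extreme in rank, width or genotype p, and the longest runs, except 1 gene that is not reported here and was left out of its list. The internal starts, the miRNAs and list genes with fewer than 4 regions were chosen after their values were seen. Members and the 14 gene lists were chosen with earlier results of these data known. Alternatives covered the ranked measure, the peak threshold, list length, overlap, gene-end distance, gene models, each library left out, a replicate block and clone means.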

Additional observations from a re-analysis of the deposited data

Results flagged for a closer look

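The width difference between intragenic and gene-end regions differed between genotypes. It was -190 ± 7.39 bp in synHPRT1 libraries and -181 ± 5.14 bp in synHPRT1R libraries (SD, n = 6 each), a further -8.50 bp in synHPRT1 (two-sided exact permutation test, p = 0.0476, unadjusted, among 4 such tests whose other p-values were 0.394, 0.580 and 0.948). Peak lists averaged 51630 ± 10047 peaks in synHPRT1 libraries and 48048 ± 5978 in synHPRT1R libraries, and the part of list length in the width difference was not tested.

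A library lay far from the other 5 of its genotype in 11 of 130 groups of 6 looked at (8.46%). The groups shared values, since 52.7 at Cntnap2 counted both as a region and as a gene median. Some regions were also picked for extreme rank or genotype p, so no chance rate is set beside this share. Among single regions by fold percentile, the far library was the lowest synHPRT1 library at Cntnap2 (52.7) and Tulp3 (62.1). The Chl1 region also met the criterion (lowest 99.99), but its synHPRT1 values differed by no more than a step of rank at the top of the scale, so the library did not lie far from the others in size. In synHPRT1R libraries it was the lowest at Dnah7b (92.9) and Csmd1 (16.9) and the highest at Atp6v1h (34.7). Among medians over the regions of a gene, it was the lowest synHPRT1 library for Cntnap2 (52.7) and Esrrb (6.71). In synHPRT1R libraries it was the highest for Sfi1 (1.19) and Ptprn2 (63.4) and the lowest for Prkg1 (11.9).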

How the results depend on the processing

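The lower rank and smaller width of intragenic regions relative to gene ends kept their direction and passed the test under every alternative run, and leaving out each library gave -14.4 to -13.8 points and -193 to -185 bp, but the rank difference was -3.48 without regions at RefSeq starts. Relative to intergenic regions, the rank difference was -0.742 (exact permutation p = 0.0586) when peaks had to cover 50% of a region, -4.42 without regions at RefSeq starts, -1.43 with ranks by −log10 p and -2.76 to -2.17 without single libraries. The width difference turned to -9.58 bp without regions at RefSeq starts, was 37.4 bp at 50% coverage, 17.8 bp with a limit of 500 bp, 5.54 bp with one of 2 kb and 7.12 bp without predicted gene models, and was 8.23 to 11.8 bp without single libraries. The number of intragenic regions was 3631 at a −log10 q of at least 5, 1816 at 50% coverage and 5753 to 6185 without single libraries. Of 33 named genes, 17 kept a count within 1.5 times at that q limit and 3 at 50% coverage. The genotype difference in median percentile, 0.0204, turned to -0.294 with ranks by −log10 p, -0.213 at a −log10 q of at least 5, -0.0868 with lists of equal length, -0.223 with a limit of 500 bp, -0.263 without predicted gene models, and -0.854 to -0.0409 without single libraries (exact p from 0.0281 to 0.942). The cause was not tested for any of these. The width difference between genotypes was 1.27 to 46.5 bp without single libraries. Limma called 0 intragenic regions under every alternative, with 443 at an unadjusted p under 0.05 with the replicate number as a block. Same-numbered libraries of different clones did not deviate together (r from -0.042 to 0.025), and the block left the genotype difference at 0.0204 (exact permutation p = 0.963). Whether weak peaks near the calling threshold limit what can be listed in all 12 libraries was not tested.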
